A study of Mus musculus with 9 samples.

Results

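Carbonic anhydrases are zinc enzymes that interconvert carbon dioxide and water with bicarbonate and a proton. The 8 described here, Car1, Car2, Car3, Car4, Car5b, Car8, Car12 and Car13, were selected by symbol from the 19938 genes of a mouse bone marrow array series. Car1 and Car2 were picked as erythroid genes and Car8 was picked because it had been seen raised in the ERG leukemias, so the values of the leukemia arrays helped to choose the members and every comparison of a leukemia is given for them as a description. Each of the 8 was read by 1 probe set, a group of short probes that together report 1 gene.

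The arrays compared marrow in which an ERG transgene had given rise to a myeloid leukemia with normal marrow, either whole or enriched for immature cells. ERG leukemia arrays came from the whole femoral marrow of 3 ERG transgenic mice, taken once signs of disease appeared. WT Lin- arrays came from wild type marrow passed over a lineage depletion kit, which removes cells that carry mature blood lineage markers; 9 mice were pooled into 3 samples of 3 mice. WT whole marrow arrays came from the unfractionated femoral marrow of 3 other wild type mice. All groups were on the C57BL6 strain. The promoter that drives the transgene, its species of origin and the ages of the mice are not stated in the labels, and the leukemias were not lineage depleted, so leukemia and Lin- marrow differ in handling as well as in genotype.

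Within the red cell, cytosolic carbonic anhydrases speed the hydration of carbon dioxide picked up in tissues, and the bicarbonate formed leaves through the anion exchanger encoded by Slc4a1. Car1 and Car2 are the abundant red cell enzymes, and Car2 also acidifies the space under osteoclasts. Car13 and Car3 are cytosolic too, Car3 being a slow enzyme best known from skeletal muscle and fat. Car5b works in mitochondria. Car4 is tethered to the outer face of the plasma membrane by a lipid anchor and Car12 spans it. Car8 has lost a zinc-binding histidine and with it the catalytic activity; it is known for binding the IP3 receptor encoded by Itpr1, a calcium release channel, in cerebellar Purkinje cells.

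Values are intensities on a linear scale, and the median over all 28853 probe sets and 9 arrays was 33.4. A level near or under that median cannot be told from background, and a difference from such a level is limited by it. Arrays of 1 group correlated with each other at 0.971 to 0.995 in log2 intensity over the 19938 genes, with 1 probe set per gene. The probe set of the mouse gene Erg had mean log2 intensities of 6.37 in ERG leukemia and 7.29 in WT whole marrow, a difference of -0.91 ± 0.18 (SE, limma adjusted p = 0.00739), and whether it reads the transgene is not stated. Mature neutrophil genes were present in the leukemias, with a mean log2 intensity of 10.04 to 10.77 over 12 genes, against 5.75 to 7.41 in WT Lin- marrow and 11.67 to 11.95 in WT whole marrow. These genes were thus lowest in the Lin- pools. Erythroid genes were not: their mean log2 intensity over 18 markers was 8.63 to 9.10 in WT Lin- marrow and 6.83 to 8.27 in WT whole marrow. In these bulk samples a lower level may come from fewer cells of a type or from less RNA per cell, and the data do not separate them.

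Of the 8 genes, Car1 and Car2 were bright in every group, Car13 was of middle intensity, Car3 lay above the median in leukemia and Lin- marrow, Car8 lay above it in all 3 leukemias and Car5b in leukemias 2 and 3, with their group means below it in both wild type groups, and Car4 and Car12 stayed below it in every group. Relative to WT whole marrow, Car1, Car2, Car8 and Car13 were higher in ERG leukemia past the threshold of an adjusted p of 0.05, and the other 4 did not pass. Over all genes, 14.6% were called higher and 9.93% lower in that comparison. Relative to WT Lin- marrow, only Car8 was higher in ERG leukemia past the threshold, where 2.95% of all genes were called higher and 5.74% lower. Because the choice of members used the leukemias, nothing is read from either count. Between the wild type groups, a comparison that the choice did not name but whose earlier results were known, Car1 and Car2 were higher in WT Lin- than in WT whole marrow and the other 6 did not pass, with 21.7% of all genes called higher and 13% lower. The median log2 difference of the 8 members was 1.35 for ERG leukemia minus WT whole marrow, 0.50 for ERG leukemia minus WT Lin- marrow and 0.43 for WT Lin- minus WT whole marrow, beside medians of -0.02, 0.01 and -0.03 over all genes. Each pair of these comparisons shares the arrays of 1 group. As the choice of members used the leukemias, nothing is read from the leukemia medians of the members either.

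**Figure D1:**
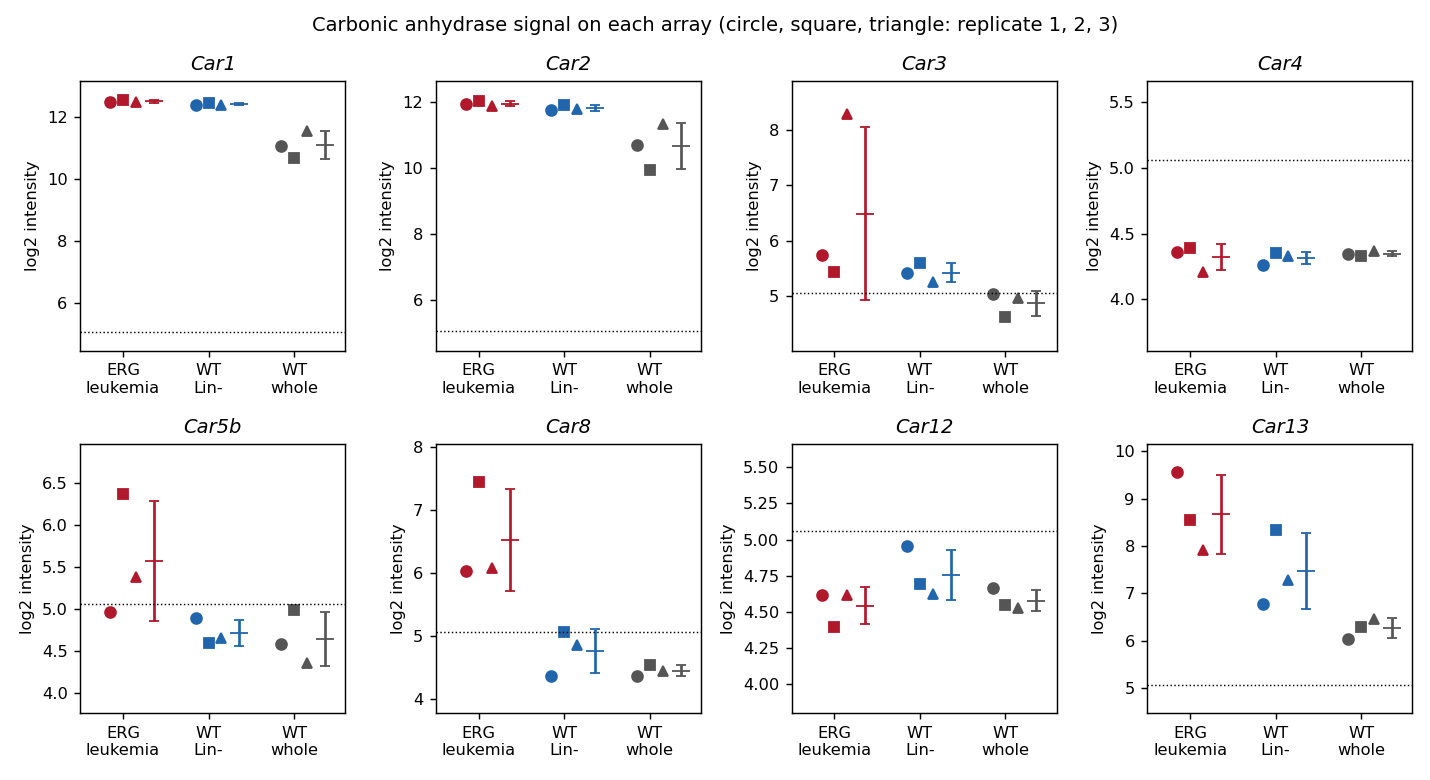
Intensity (log axis) of the 8 carbonic anhydrases on each array, 1 panel per gene, with ERG leukemia left, WT Lin- marrow in the middle and WT whole marrow right. Each point is 1 array, the short bar is the group's mean of log2 values, and the dotted line is the median intensity of all probe sets, 33.4. Car1 and Car2 lie closely together in leukemia and Lin- marrow, while Car3, Car5b, Car8 and Car13 each have 1 leukemia well above the other leukemias.

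Car1, the first of the abundant red cell enzymes, had intensities of 5776, 6090 and 5745 in ERG leukemia 1 to 3, 5345, 5600 and 5455 in WT Lin- marrow 1 to 3, and 2151, 1634 and 3034 in WT whole marrow 1 to 3. All leukemias lay above all Lin- pools, and both groups lay above all whole marrows without overlap. The spread was unequal: the SD of log2 intensity was 0.05 in ERG leukemia, 0.03 in WT Lin- marrow and 0.45 in WT whole marrow (n = 3 each). WT Lin- marrow exceeded WT whole marrow by 1.31 ± 0.19 on the log2 scale (SE), 2.48-fold, with a limma adjusted p of 0.000798. ERG leukemia exceeded WT whole marrow by 1.41 ± 0.19 and WT Lin- marrow by 0.10 ± 0.19. That last gap was larger than the SD within either group and smaller than its standard error, which comes from a spread shared with the more variable whole marrows.

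Car2, the fast red cell enzyme, had intensities of 3904, 4181 and 3747 in ERG leukemia, 3451, 3823 and 3520 in WT Lin- marrow, and 1655, 987.03 and 2567 in WT whole marrow. Leukemia and Lin- ranges overlapped, and both lay above all whole marrows. WT Lin- marrow exceeded WT whole marrow by 1.16 ± 0.28 (SE), 2.23-fold, with a limma adjusted p of 0.0117. ERG leukemia exceeded WT whole marrow by 1.29 ± 0.28 and WT Lin- marrow by 0.13 ± 0.28. The group means stood in the order seen for Car1, and leukemia and Lin- marrow did not differ beyond the standard error.

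Both probe sets were near the top of the array's range wherever they were high. Of all probe sets on an array, 0.0277% to 0.0381% were brighter than Car1 in ERG leukemia, 0.0173% to 0.0416% in WT Lin- marrow and 0.61% to 1.84% in WT whole marrow. For Car2 the shares were 0.218% to 0.343% in ERG leukemia, 0.184% to 0.395% in WT Lin- marrow and 0.815% to 3.75% in WT whole marrow. Whether such signals still follow the amount of RNA in proportion was not tested.

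The erythroid marker genes moved with Car1 and Car2. The mean log2 intensity of the 18 measured markers was 8.63, 9.59 and 9.29 in ERG leukemia 1 to 3, 8.63, 9.10 and 8.75 in WT Lin- marrow 1 to 3, and 7.59, 6.83 and 8.27 in WT whole marrow 1 to 3. The whole marrow with the lowest erythroid mean also had the lowest Car1 and Car2, and the one with the highest erythroid mean had the highest of both. Of these markers, 14 of 18 were higher in ERG leukemia than in WT whole marrow, with a median log2 difference of 1.65, and 12 of 18 were higher in WT Lin- than in WT whole marrow, with a median of 1.41. Among them Gata1, the master transcription factor of the lineage, rose by 2.34 ± 0.45 in ERG leukemia (limma adjusted p = 0.00655) and by 2.64 ± 0.45 in WT Lin- marrow (adjusted p = 0.00196), both relative to WT whole marrow. Epb42, a protein of the red cell membrane skeleton, rose by 2.21 ± 0.45 in ERG leukemia (adjusted p = 0.00812) and differed by 0.88 ± 0.45 in WT Lin- marrow (adjusted p = 0.172). Epor, the erythropoietin receptor, rose by 2.11 ± 0.37 in WT Lin- marrow (adjusted p = 0.00235). Between ERG leukemia and WT Lin- marrow limma called none of the 18 in the main fit, and the median difference was 0.17. At an unadjusted p under 0.05, 3 were higher and 0 lower. The absence of calls depended on the fit. Alas2 was called higher in ERG leukemia with 75th percentile centring, dim genes left out, trend, array weights, and without leukemia 1. Epb42 was called higher with, for example, only the 2 groups compared. Alas2 was at 281, 896 and 727 in ERG leukemia and 119, 190 and 135 in WT Lin- marrow. Epb42 was at 378, 545 and 475 against 146, 236 and 178.

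Set against the erythroid mean of the same array, Car2 kept a nearly constant offset in WT whole marrow. The log2 intensity of Car2 minus the erythroid mean, an offset whose size depends on the probes and which is compared here only between arrays, was 3.30, 2.44 and 2.58 in ERG leukemia, 3.13, 2.80 and 3.03 in WT Lin- marrow, and 3.11, 3.12 and 3.05 in WT whole marrow. The 3 whole marrows thus agreed to an SD of 0.04, although their Car2 intensities lay between 987.03 and 2567. For Car1 the same offset was 3.86, 2.99 and 3.20 in ERG leukemia, 3.76, 3.35 and 3.67 in WT Lin- marrow, and 3.49, 3.85 and 3.29 in WT whole marrow. The groups overlapped in this offset for both genes except that the 2 lower leukemias lay below all wild type arrays for each.

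Car13, a cytosolic enzyme, was of middle intensity in leukemia and dimmer in whole marrow. Its intensities were 754.8, 372.5 and 239.9 in ERG leukemia, 109.6, 325.02 and 154.6 in WT Lin- marrow, and 65.7, 78.7 and 88.0 in WT whole marrow. Leukemia and Lin- ranges overlapped through Lin- pool 2, and both groups lay above all whole marrows. The log2 difference was 2.40 ± 0.47 (SE), 5.29-fold, for ERG leukemia minus WT whole marrow and 1.20 ± 0.47 for ERG leukemia minus WT Lin- marrow. WT Lin- minus WT whole marrow was also 1.20 ± 0.47, which missed the threshold (limma adjusted p = 0.0794). That call depended on the arrays in the fit: the adjusted p was 0.0395 without leukemia 1, at the same difference, and 0.0451 without Lin- pool 1, at a difference of 1.54.

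The leukemia with the brightest Car13 was not the one with the most erythroid RNA. Leukemia 1 had the highest Car13 and the lowest erythroid mean of the 3, and was the highest of the 3 leukemias for 0 of the 18 erythroid markers. It was the highest for 8 of 12 mature neutrophil genes and for 8 of 12 eosinophil, basophil and mast cell genes. The share over all genes was not computed. Without leukemia 1, the Car13 difference between ERG leukemia and WT whole marrow was 1.96. Relative to the erythroid mean of its array, Car13 stood at 0.93 on the log2 scale in leukemia 1, against -1.05 and -1.38 in leukemias 2 and 3, -1.85 to -0.76 in WT Lin- marrow and -1.81 to -0.53 in WT whole marrow. Leukemias 2 and 3 therefore fell within the range of the wild type arrays in this offset, and leukemia 1 lay above every other array. What share of the Car13 signal follows the makeup of the marrow was not tested.

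Car3, the muscle and fat enzyme, was far brighter in leukemia 3 than on any other array. Its intensities were 53.8, 43.3 and 311.2 in ERG leukemia, 42.7, 48.1 and 38.0 in WT Lin- marrow, and 32.7, 24.5 and 31.4 in WT whole marrow. All leukemias and all Lin- pools lay above all whole marrows, yet 2 of the 3 leukemias were no more than slightly above the median of the array. The log2 difference was 1.62 ± 0.63 (SE) for ERG leukemia minus WT whole marrow and 1.07 ± 0.63 for ERG leukemia minus WT Lin- marrow. Without leukemia 3 they were 0.72 and 0.17. WT Lin- minus WT whole marrow was 0.55 ± 0.63 and did not pass (limma adjusted p = 0.556) in the fit whose spread is shared with leukemia 3. Without that array the same difference of 0.55 had an adjusted p of 0.0240.

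Car3 is best known from fat and skeletal muscle, whose other markers were measured on the same arrays. Over 11 adipocyte and skeletal muscle genes the mean log2 intensity was 5.07, 4.73 and 4.94 in ERG leukemia 1 to 3, 4.54 to 4.62 in WT Lin- marrow and 4.82 to 4.92 in WT whole marrow, and 6 to 10 of the 11 lay below the median intensity on each array. In leukemia 3, with Car3 at 311.2, 7 of the 11 lay below the median, among them Adipoq at 17.5 and Plin1 at 27.9. Above it lay Ckm at 33.9, Lpl at 42.3, Acta1 at 47.3 and Fabp4 at 128.6. Lpl was at 208.2, 40.6 and 42.3 in ERG leukemia, 19.3 to 21.8 in WT Lin- marrow and 45.4 to 76.3 in WT whole marrow. Fabp4, a fatty acid binding protein of fat and of other cells, was at 121.1, 26.8 and 128.6 in ERG leukemia, 21.6 to 23.7 in WT Lin- marrow and 32.8 to 56.2 in WT whole marrow. Limma called none of the 11 in any of the 3 comparisons. At an unadjusted p under 0.05, 2 were higher in ERG leukemia than in WT Lin- marrow, 2 were lower in WT Lin- than in WT whole marrow, and none passed between ERG leukemia and WT whole marrow. Leukemia 3 was the highest of the 3 leukemias for 5 of the 11 genes, Fabp4 and Plin1 among them, leukemia 2 for 4 and leukemia 1 for 2. The part of such cells in the Car3 signal was not tested. Adipoq, Plin1, Ckm, Lpl, Acta1 and Fabp4 were picked from the list after their values were seen.

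Car8, the member without enzyme activity, had intensities of 65.5, 174.9 and 67.2 in ERG leukemia, 20.7, 33.3 and 29.0 in WT Lin- marrow, and 20.7, 23.2 and 21.8 in WT whole marrow. All 3 leukemias lay above all 6 wild type arrays, which overlapped each other at or below the median intensity. The log2 difference was 2.07 ± 0.35 (SE), 4.19-fold, for ERG leukemia minus WT whole marrow and 1.76 ± 0.35, 3.38-fold, for ERG leukemia minus WT Lin- marrow, and both folds are lower bounds because the wild type levels lie at background. Without leukemia 2, the brightest, the differences were 1.60 and 1.29. Car8 was the gene whose raised level helped to choose the members, and its passing of the threshold against WT Lin- marrow was lost without Lin- pool 1 or without Lin- pool 3. WT Lin- and WT whole marrow differed by 0.31 ± 0.35 and did not pass (limma adjusted p = 0.551).

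Of the IP3 receptors, the calcium channels to which Car8 is known to bind, Itpr2 and Itpr3 were measured and Itpr1 was not analysed here. Itpr2 had intensities of 137.2, 74.2 and 99.8 in ERG leukemia, 156.4, 103.5 and 123.2 in WT Lin- marrow, and 306.6, 305.8 and 337.4 in WT whole marrow. It was lower in both other groups than in WT whole marrow, by -1.65 ± 0.22 in ERG leukemia (limma adjusted p = 0.00158) and by -1.33 ± 0.22 in WT Lin- marrow (adjusted p = 0.00174). Itpr3 differed by -0.74 ± 0.29 in ERG leukemia (adjusted p = 0.102) and by -0.48 ± 0.29 in WT Lin- marrow (adjusted p = 0.250), and passed the threshold in both comparisons once whole marrow 2 was left out. The leukemia with the brightest Car8, leukemia 2, had the lowest level of both receptors among the 3 leukemias.

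Car5b, the mitochondrial enzyme, had intensities of 31.3, 82.5 and 41.5 in ERG leukemia, 29.6, 24.1 and 25.1 in WT Lin- marrow, and 23.9, 31.7 and 20.5 in WT whole marrow. The leukemias lay above all Lin- pools, leukemia 1 by a narrow margin, and overlapped the whole marrows. The log2 difference was 0.93 ± 0.32 (SE) for ERG leukemia minus WT whole marrow and 0.86 ± 0.32 for ERG leukemia minus WT Lin- marrow. Without leukemia 2 they were 0.53 and 0.46. The wild type groups differed by 0.07 ± 0.32 (limma adjusted p = 0.888), and all 6 wild type arrays were below the median intensity.

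The membrane enzymes were not detected above background. Car4 lay between 18.5 and 21.0 in ERG leukemia, between 19.2 and 20.4 in WT Lin- marrow and between 20.1 and 20.7 in WT whole marrow, with all groups overlapping. Car12 lay between 21.1 and 24.6 in ERG leukemia, between 24.6 and 31.0 in WT Lin- marrow and between 23.0 and 25.4 in WT whole marrow, the brightest leukemia lying just below the dimmest Lin- pool. WT Lin- minus WT whole marrow was -0.03 ± 0.07 for Car4 (limma adjusted p = 0.773) and 0.18 ± 0.11 for Car12 (adjusted p = 0.246). At such intensities the arrays do not show whether the groups differ.

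**Figure D2:**
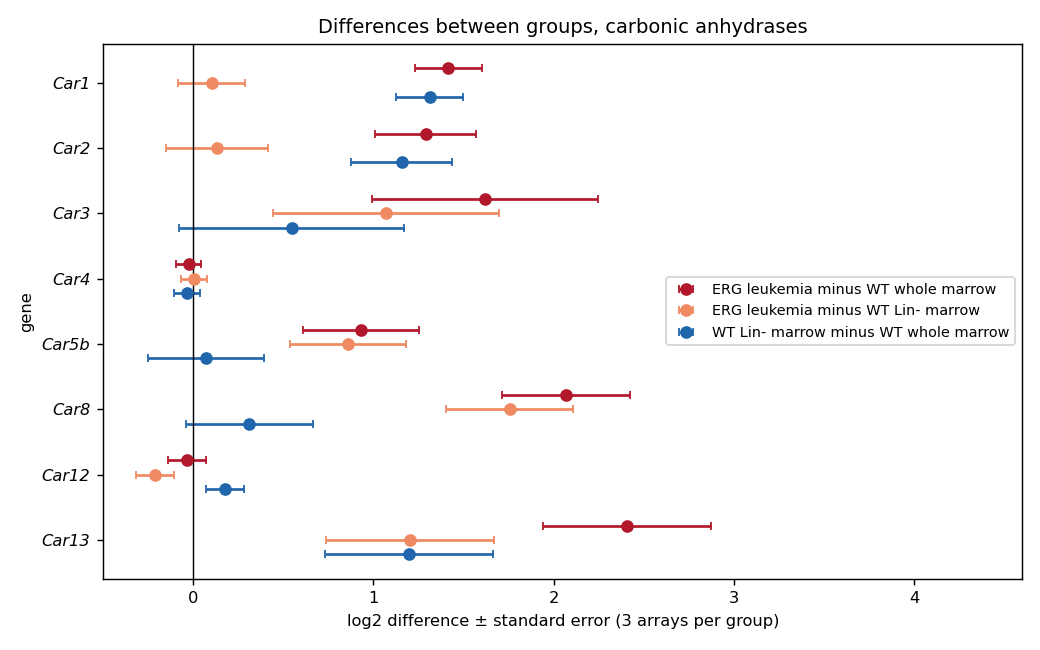
Log2 difference between groups (horizontal axis) for the 8 carbonic anhydrases, with the standard error of the shared fit as a bar (3 arrays per group). Car1 and Car2 have leukemia minus Lin- differences near 0 and the other 2 comparisons above 1, while Car8 and Car5b have the Lin- minus whole marrow difference near 0.

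The 8 genes fell into differing patterns across the groups. Car1 and Car2 were high in both leukemia and Lin- marrow and lower in whole marrow. Car13 and Car3 descended in the order leukemia, Lin- and whole marrow, with the leukemia and Lin- ranges overlapping. Car8 and Car5b were at background in both wild type groups and had their higher means in leukemia, where Car5b still overlapped whole marrow. These are groupings made after the values were seen and were not tested.

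Among the 3 leukemias, the genes did not rank alike. Leukemia 1 was the brightest for Car13, leukemia 2 for Car1, Car2, Car5b and Car8, and leukemia 3 for Car3. The SD of log2 intensity over the 3 was 0.05 for Car1 and 0.08 for Car2, against 0.83 for Car13, 0.81 for Car8, 0.72 for Car5b and 1.56 for Car3. In WT Lin- marrow the corresponding SDs were 0.03, 0.08, 0.80, 0.35, 0.16 and 0.17, and in WT whole marrow 0.45, 0.69, 0.21, 0.08, 0.32 and 0.23. Car13 was thus as variable among the Lin- pools as among the leukemias.

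Leukemia 2, with the brightest Car8 and Car5b, was also the brightest of the 3 for 15 of 18 erythroid and for 9 of 9 measured megakaryocyte and platelet markers. It was the brightest for 0 of 8 primary granule, 0 of 12 mature neutrophil and 1 of 12 monocyte and macrophage genes. For eosinophil, basophil and mast cell genes the count was 2 of 12. The share of all genes brightest in leukemia 2 was not computed, and nothing is read from these counts. The mean log2 intensity of the 9 megakaryocyte and platelet markers was 6.56 to 8.08 in ERG leukemia, 8.53 to 9.23 in WT Lin- marrow and 7.30 to 7.54 in WT whole marrow. The 9 did not move alike: limma called 1 higher and 4 lower in ERG leukemia than in WT Lin- marrow. Over all genes, 2.95% were called higher and 5.74% lower in that comparison. Car8 and Car5b were near background in the Lin- pools. What share of the Car8 and Car5b signals follows the makeup of the marrow was not tested.

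**Figure D3:**
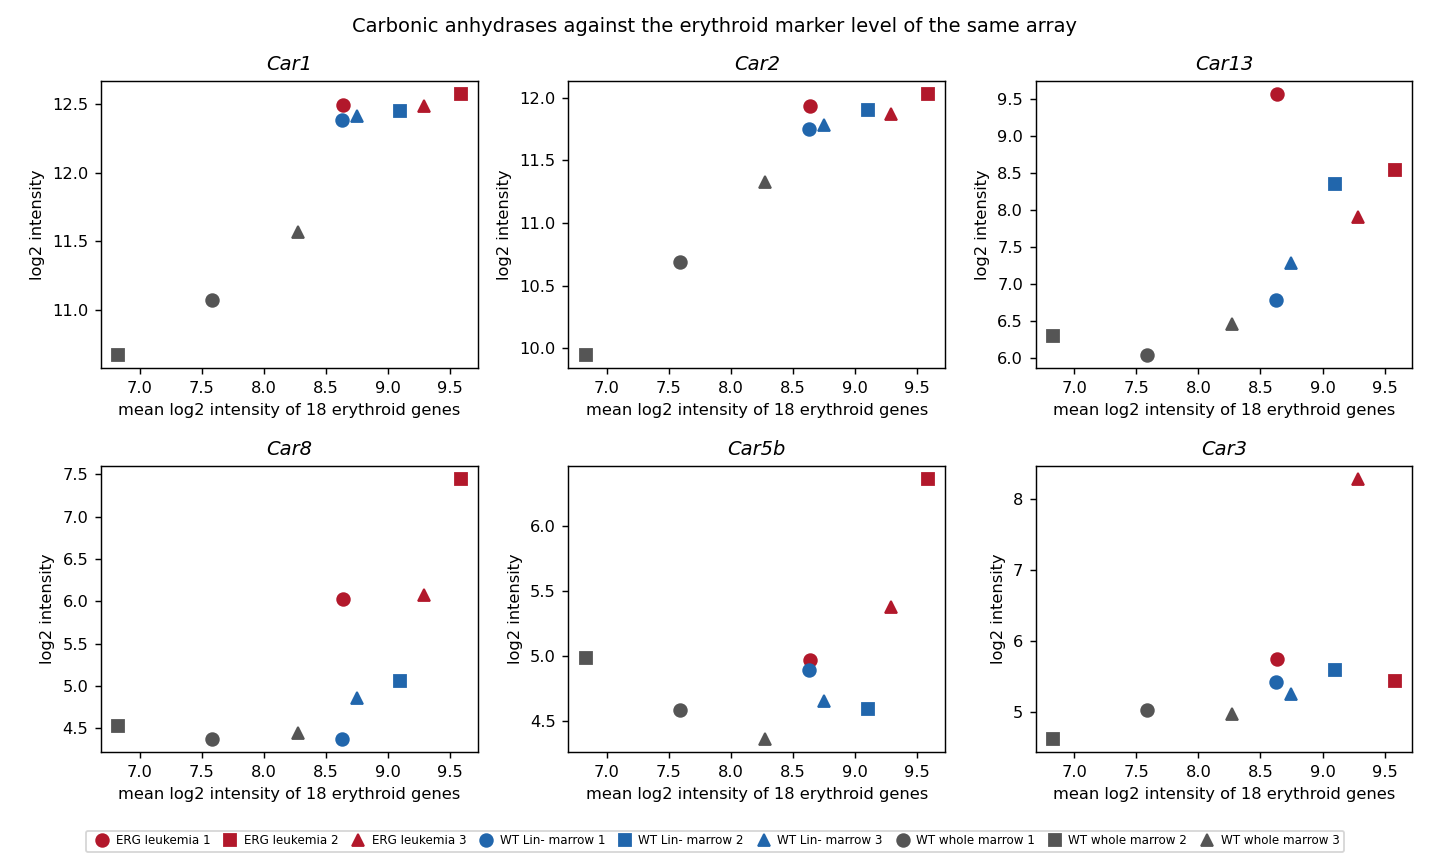
Log2 intensity of 6 carbonic anhydrases (vertical axis) against the mean log2 intensity of 18 erythroid genes on the same array (horizontal axis), 1 point per array, with colour for the group and shape for the replicate number. Car1 and Car2 climb with the erythroid level among the whole marrows and are nearly flat across the leukemias and Lin- pools, whose erythroid means span 8.63 to 9.59. The brightest point is leukemia 1 for Car13, leukemia 2 for Car8 and Car5b and leukemia 3 for Car3.

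Car13, Car1, Car3 and Car2 are neighbours, in that order, among the protein-coding genes of the RefSeq annotation of the mouse assembly GRCm38.p6. Their genomic coordinates are not given because the build behind the array annotation is not stated. The 4 were higher on all leukemia and all Lin- arrays than on all whole marrow arrays, as were 16.8% of all genes, and nothing is read from this since the members were chosen on the leukemias. Among the leukemias, Car13 peaked in leukemia 1, Car1 and Car2 in leukemia 2, and Car3 in leukemia 3. On the Car13 side lie Rbis, E2f5 and Lrrcc1, which differed between ERG leukemia and WT whole marrow by 0.21 ± 0.12, 0.06 ± 0.19 and 0.06 ± 0.09 (limma adjusted p = 0.279, 0.870 and 0.725). The same 3 were higher in WT Lin- than in WT whole marrow, by 0.58 ± 0.12, 0.73 ± 0.19 and 0.41 ± 0.09 (adjusted p = 0.00583, 0.0145 and 0.00753). On the Car2 side, the predicted gene Gm9733 was lower in ERG leukemia than in WT whole marrow by -1.18 ± 0.30 (limma adjusted p = 0.0229). It was lower still in WT Lin- marrow, by -3.60 ± 0.30 relative to WT whole marrow (limma adjusted p = 9.21e-05). ERG leukemia thus exceeded WT Lin- marrow in this gene, by 2.42 ± 0.30 (limma adjusted p = 0.00335).

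The other carbonic anhydrases on the array, Car5a, Car6, Car7, Car9, Car10, Car11, Car14 and Car15, were dim. Only Car15 exceeded the median intensity in all groups, at 45.2 to 46.8 in ERG leukemia, 37.7 to 45.7 in WT Lin- marrow and 36.2 to 47.9 in WT whole marrow. Limma called none of the 8 between ERG leukemia and either wild type group, 1 being lower at an unadjusted p under 0.05 against WT Lin- marrow and none against WT whole marrow. Car9, a membrane enzyme known as a hypoxia target, had intensities of 26.9, 20.7 and 26.9 in ERG leukemia, 42.2, 30.1 and 35.4 in WT Lin- marrow, and 28.1, 25.4 and 23.3 in WT whole marrow. It was higher in WT Lin- than in WT whole marrow by 0.48 ± 0.15 (limma adjusted p = 0.0370), a call lost without Lin- pool 1, Lin- pool 3, whole marrow 2 or whole marrow 3 and after 75th percentile centring.

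Carbonic anhydrases act together with membrane carriers of bicarbonate, protons and gases, of which 19 were measured. Relative to WT whole marrow, 4 of the 19 were higher in ERG leukemia (Rhag, Aqp1, Rhd and Slc16a1) and 3 were lower (Hvcn1, Slc16a3 and Slc26a11), and the same 7 were called in the same directions in WT Lin- marrow, a comparison that shares the whole marrow arrays. Over all genes, 14.6% were called higher and 9.93% lower in ERG leukemia, and 21.7% higher and 13% lower in WT Lin- marrow, and nothing particular to the carriers is read from their counts. Rhd, Slc16a1 and Slc26a11 are named because the counts are small, after their values were seen. Slc26a11 lay at 20.8 to 22.5 in ERG leukemia, 19.7 to 20.7 in WT Lin- marrow and 25.5 to 30.7 in WT whole marrow. All of these lie below the median intensity, so its level cannot be told from background. The median difference of the 19 was -0.01 and -0.02 in the 2 comparisons.

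Rhag, the red cell Rh-associated glycoprotein and a channel for ammonia and carbon dioxide, had intensities of 1189, 1626 and 1447 in ERG leukemia, 1151, 1514 and 1099 in WT Lin- marrow, and 360.6, 158.8 and 551.1 in WT whole marrow. It was higher than in WT whole marrow by 2.16 ± 0.39 in ERG leukemia (limma adjusted p = 0.00497) and by 1.97 ± 0.39 in WT Lin- marrow (adjusted p = 0.00405). Aqp1, the red cell water channel, was higher by 2.09 ± 0.38 (adjusted p = 0.00555) and by 1.98 ± 0.38 (adjusted p = 0.00387) in the same comparisons. Rhag, Aqp1, Rhd and Slc4a1 also belong to the 18 erythroid markers. Without Lin- pool 2, Rhd and Slc16a1 lost their call in WT Lin- marrow, which left 2 of the 4.

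Slc4a1, the anion exchanger that exports the bicarbonate made by red cell carbonic anhydrases, did not pass in any comparison. Its intensities were 409.5, 1373 and 1577 in ERG leukemia, 612.6, 804.4 and 601.7 in WT Lin- marrow, and 538.6, 335.3 and 1197 in WT whole marrow, and ERG leukemia exceeded WT whole marrow by 0.68 ± 0.57 (limma adjusted p = 0.467). Leukemia 1, in which Car1 and Car2 were as bright as in the others, had the lowest Slc4a1 of the leukemias. Hvcn1, a voltage-gated proton channel of white cells, fell by 1.95 ± 0.21 on the log2 scale in ERG leukemia (adjusted p = 0.000810) and by 2.41 ± 0.21 in WT Lin- marrow (adjusted p = 9.52e-05) relative to WT whole marrow. Slc16a3, a lactate and proton exporter, had intensities of 213.7, 161.1 and 176.4 in ERG leukemia, 65.4, 51.2 and 58.4 in WT Lin- marrow, and 367.9, 460.4 and 297.1 in WT whole marrow. It was the 1 carrier of 19 that limma called between ERG leukemia and WT Lin- marrow, higher in ERG leukemia by 1.65 ± 0.17 (adjusted p = 0.00158).

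**Figure D4:**
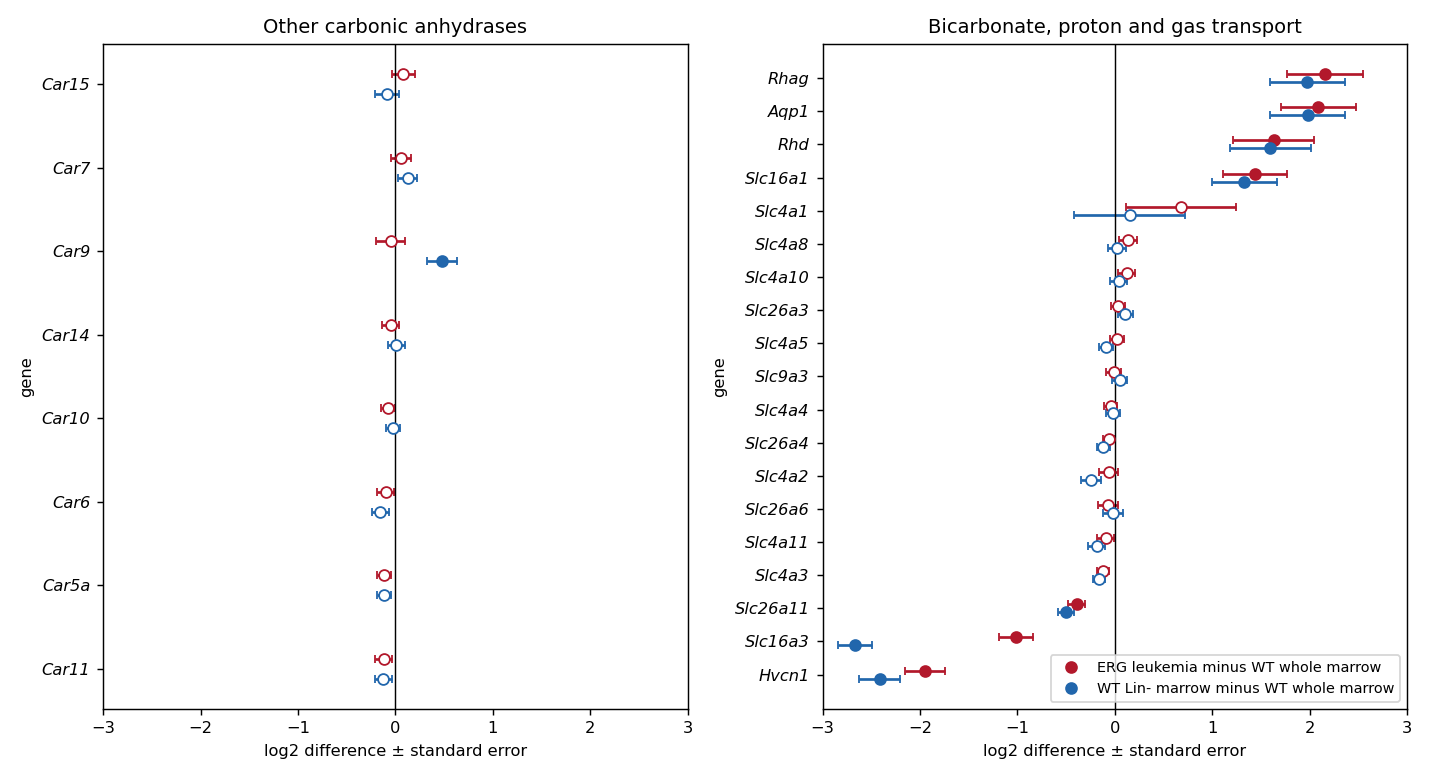
Log2 difference from WT whole marrow (horizontal axis) with its standard error (3 arrays per group) for ERG leukemia (red) and WT Lin- marrow (blue), left for the other carbonic anhydrases and right for 19 carriers. Filled points passed an adjusted p of 0.05 and open points did not. Car9 in Lin- marrow is the only filled point on the left; on the right Rhag, Aqp1, Rhd and Slc16a1 lie above 1 and Hvcn1 and Slc16a3 at or below -1 in both comparisons.

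Osteoclasts are the other marrow cells known for Car2. Over 10 osteoclast genes the mean log2 intensity was 5.63 to 5.94 in ERG leukemia, 5.38 to 5.70 in WT Lin- marrow and 6.15 to 6.47 in WT whole marrow, and 4 to 7 of the 10 lay below the median on each array. Compared with WT whole marrow, limma called 2 of the 10 lower in ERG leukemia and 4 lower and 1 higher in WT Lin- marrow. Over all genes, 9.93% were called lower in ERG leukemia, and 13% were called lower and 21.7% higher in WT Lin- marrow. The genes lower in ERG leukemia were Mmp9, a matrix protease that neutrophils also make, and Itgb3, an integrin that platelets also carry. The 4 lower in WT Lin- marrow were Mmp9, Ctsk, Tcirg1 and Atp6v0d2, and Itgb3 was the 1 higher there. Tcirg1 and Atp6v0d2 were both no longer called without Lin- pool 2, Lin- pool 3, whole marrow 1 or whole marrow 3, which left 2 lower.

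The genes with the pattern nearest to each member over the 9 arrays were found by the root mean square difference of log2 values after each gene was centred on its own mean, among the 10583 named genes that exceeded the median intensity in a group. For Car1 they were Lrrc8c at 0.131, Car2 at 0.139 and Gse1 at 0.171, and for Car2 they were Car1, Zdhhc14 at 0.181 and Hs6st1 at 0.183. Both red cell enzymes were thus among each other's nearest patterns. Lrrc8c, a subunit of volume-regulated anion channels, had intensities of 799.0, 897.6 and 683.4 in ERG leukemia, 758.0, 827.3 and 869.0 in WT Lin- marrow, and 306.7, 254.6 and 377.4 in WT whole marrow.

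For Car8 the nearest were Adgrg2 at 0.154, Cacna1c at 0.209 and Ccdc92 at 0.252. Adgrg2, an adhesion G protein-coupled receptor, had intensities of 56.7, 204.0 and 66.0 in ERG leukemia, 25.9, 33.3 and 31.7 in WT Lin- marrow, and 21.8, 27.4 and 21.8 in WT whole marrow. Cacna1c, a pore subunit of voltage-gated calcium channels, was at 70.7, 134.4 and 63.7 in ERG leukemia, 20.8, 43.7 and 24.9 in WT Lin- marrow and 19.7, 20.5 and 19.3 in WT whole marrow. Both shared with Car8 a peak in leukemia 2 and levels near background in wild type marrow. Car5b lay nearest to Aldh5a1 at 0.176, Maats1 at 0.177 and Tmem40 at 0.204, which also peaked in leukemia 2.

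For Car13 the nearest genes were more distant, Mmp14 at 0.356, Radx at 0.375 and Pcdh7 at 0.418. Mmp14, a membrane-bound matrix protease, had intensities of 305.5, 228.4 and 146.9 in ERG leukemia, 56.0, 120.2 and 98.2 in WT Lin- marrow, and 33.0, 27.1 and 28.9 in WT whole marrow, which follows Car13 in ranking leukemia 1 first and Lin- pool 2 above the other pools. For Car3 the nearest were Mir144 at 0.485, Dusp12 at 0.506 and Dusp16 at 0.522. Mir144, a microRNA gene known from red cell precursors, stood at 26.0, 26.7 and 93.9 in ERG leukemia, 21.7, 25.9 and 21.3 in WT Lin- marrow, and 25.3, 24.6 and 26.7 in WT whole marrow. Its signal rose above the median in leukemia 3 alone, the array with the high Car3. These likenesses rest on 9 arrays, were chosen among 10583 genes and are given as a description.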

How the data were processed

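Bone marrow RNA of 15 mice was hybridised as 9 samples on 9 one-colour Affymetrix whole-transcript arrays, 3 per group. The deposited values are linear intensity values made by the authors with RMA in Partek, per the submitters' processing notes; versions and build: not given in the sources used here. RMA normalizes the arrays together, which can hide a shift shared by most genes. The planned tests assumed log2 values, so the intensities were log2-transformed with no pseudocount and no filter. Of the probe sets, 21789 had 1 symbol in the platform annotation, 1621 had several and 5443 were unnamed; the brightest probe set on average stood for a gene, leaving 19938 genes, of which 19856 were matched by Entrez identifier to RefSeq.

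All 3 comparisons came from a linear model of 9 arrays (lmFit, then contrasts.fit and eBayes, of limma 3.58.1 under R 4.3.3), with 6 residual and 2.62 prior degrees of freedom, two-sided, and Benjamini-Hochberg adjustment over 19938 genes. SE is that of the fit. The script was tested on simulated data. The p-values measure the spread between 3 arrays per group, which stand for single mice or, in WT Lin- marrow, for pools of 3. Replicate numbers come from the titles for wild type and from accession order for leukemia, and do not pair samples: deviations of same-numbered wild type arrays correlated at 0.31, -0.01 and -0.01.

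The members and the 14 gene lists (160 symbols, 144 measured) were chosen with earlier results of these data known. Named genes are all members, all other carbonic anhydrases, the IP3 receptors, at most the 2 largest rises and 2 largest falls past the threshold in each other list, and the 3 genes of nearest pattern to each member brighter than the median. Outside this rule, and chosen after their values were seen, are Slc4a1, Alas2, Rhd, Slc16a1, Slc26a11, Adipoq, Plin1, Ckm, Lpl, Acta1 and Fabp4. The same holds for the called osteoclast genes and the neighbours of the carbonic anhydrase cluster. Figures used matplotlib 3.10.9 in Python 3.11.15.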

Additional observations from a re-analysis of the deposited data

How the results depend on the processing

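For the members, the leukemia comparisons are descriptions, as the leukemias helped to choose them, and nothing is read from whether those calls held. Alternatives were centring on the 75th percentile, cyclic loess, the mean of all probe sets of a gene and only genes above the median intensity. Each member had 1 probe set, so the mean of all probe sets left its values unchanged and is no check of its call. Further alternatives were only the 2 groups compared, eBayes with trend, array weights and leaving out each array. For ERG leukemia minus WT whole marrow, Car1, Car2, Car8 and Car13 kept their calls under all of them, and the count ranged between 4 and 6 (4 to 5 with an array left out): Car5b joined with dim genes left out, with trend, with array weights and without leukemia 1, and Car3 with array weights and without leukemia 2 or 3. For ERG leukemia minus WT Lin- marrow the count of 1 was 0 with only those 2 groups, 3 with array weights (Car3, Car5b and Car8) and 0 to 1 with an array left out; the Car3 difference was 2.02 with array weights. For WT Lin- minus WT whole marrow the count of 2 was 4 with only those 2 groups (Car3, adjusted p = 0.0196, and Car13, adjusted p = 0.0386, joined Car1 and Car2) and 2 to 3 with an array left out. The replicate block added Car13 (adjusted p = 0.0311) to these 2 and changed no other member's call; over all genes it called 4346 higher and 2547 lower, against 4328 and 2587 without it. Car13 also passed with dim genes left out (adjusted p = 0.0463), so its adjusted p ran to both sides of the threshold. Uncalled differences that reversed were that of Car5b, -0.0525 with 75th percentile centring and -0.0709 to 0.244 with an array left out (below 0 without whole marrow 3 or Lin- pool 1), and that of Car4, 0.0372 with cyclic loess; both genes lie near background there. The cause was not tested. Scaling moved the balance of calls over all genes: higher genes made up 59.4% of calls for ERG leukemia minus WT whole marrow, 47.7% with 75th percentile centring and 47.2% with loess; 34.0%, 44.0% and 44.9% for ERG leukemia minus WT Lin- marrow; and 62.6%, 50.3% and 51.2% for WT Lin- minus WT whole marrow, where that centring put the median of all genes at -0.16. The number of arrays limits every value, and signals near the median intensity give only bounds.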
